A study of Mus musculus with 10 samples.

Results

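The genes described here are 10 genes that mark liver sinusoidal endothelial cells, *Clec4g*, *Stab1*, *Stab2*, *Lyve1*, *Kdr*, *Pecam1*, *Oit3*, *Dnase1l3*, *Gpr182*, and *Fcgr2b*. They were found by the Ensembl identifiers of their symbols, and all 10 were among the 21939 genes of the deposited table and among the 13641 genes that passed the filter on low counts. RNA was sequenced from hepatocytes that had been freshly isolated 12 days after all mice had received AAV8Cre, an adeno-associated virus that expresses Cre recombinase from the hepatocyte-specific thyroxine-binding globulin promoter. The mice were males of 8 to 9 weeks by the labels, which do not say whether this was the age at injection or at isolation. The 3 libraries labelled control came from C57BL6/j mice without floxed alleles, the 2 labelled Nrf2 KO from Nrf2 flox/flox mice, the 2 labelled p65 KO from p65 flox/flox mice, and the 3 labelled DKO from Nrf2:p65 double floxed mice. By the study's methods, the floxed mice shared the genetic background of the control mice. The hepatocytes were enriched by low-speed centrifugation and Percoll, and the comparison asked how transcripts of a cell type outside this enrichment varied with the genotype of the hepatocytes. Total counts ranged from 33707165 to 49897382 per library.

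Sinusoidal endothelial cells line the capillaries of the liver lobule. They carry open pores instead of a closed wall with a basement membrane, so that plasma reaches the hepatocytes directly, and they take up waste macromolecules, immune complexes, and hyaluronan from the blood through a set of scavenger receptors. They also send signals such as Wnt ligands to hepatocytes. In the healthy organ hepatocytes are not known as a source of these 10 transcripts, and the libraries were made from bulk RNA. A different number of endothelial cells or fragments in a preparation and a different amount of RNA per endothelial cell therefore cannot be told apart. *Stab1*, *Lyve1*, *Pecam1*, and *Fcgr2b* can also be expressed by macrophages or other leukocytes. For these genes, RNA from such cells cannot be told apart from endothelial RNA either.

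The targeted genes were examined first. *Nfe2l2*, which encodes Nrf2, was measured at 2318, 1991, and 1990.2 normalized counts in the control libraries, at 4739 and 5005 in the libraries labelled Nrf2 KO, at 1993 and 1997 in those labelled p65 KO, and at 4111, 3434, and 5239.5 in those labelled DKO. *Rela*, which encodes p65, was between 1221 and 1276 in control, at 1183 and 1209 in the libraries labelled p65 KO, and between 1034 and 1488 in those labelled DKO. A whole-gene count includes transcript outside the floxed segment and does not check the labels. The genotypes are therefore given as labelled throughout. Hepatocyte genes dominated every library, and the summed level of 9 hepatocyte genes stayed between 0.852 and 1.34 times the control mean.

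All 10 genes are protein-coding. On GRCm39 the GENCODE annotation places *Clec4g* on chromosome 8 (3757064 to 3770671), *Stab1* and *Dnase1l3* on chromosome 14 (30860970 to 30890598 and 14475200 to 14505240), *Stab2*, *Oit3*, and *Gpr182* on chromosome 10 (86675054 to 86843889, 59258780 to 59277702, and 127580924 to 127587635), *Lyve1* on chromosome 7 (110448585 to 110462460), *Kdr* on chromosome 5 (76093487 to 76139884), *Pecam1* on chromosome 11 (106543689 to 106641454), and *Fcgr2b* on chromosome 1 (170786186 to 170804177). *Dnase1l3* lies on the plus strand and the other 9 on the minus strand. No other annotated gene overlapped one of the 10 on the same strand. Sequence shared with other genes was small. Of the 31-base words of each gene's transcripts, 5.67% of those of *Fcgr2b* were also found in other genes, most of them in its neighbor *Fcgr3* (4.06%), and 5.67% of those of *Pecam1*, whereas the other 8 genes had between 0 and 0.817%.

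Promoter sequence was available from RefSeq (GRCm38.p6) for 5 of the 10 genes, *Clec4g*, *Stab1*, *Stab2*, *Kdr*, and *Fcgr2b*, and each window matched GRCm39 at exactly 1 position. Each window of 300 bases (250 before and 50 after the start site) was searched on both strands for 4 motifs. The ETS motif was searched as AGGAAG, the letters AGATAA stood for GATA factors, and the forkhead motif was searched as GTAAACA. These families contain regulators of endothelial genes. The box bound by the general transcription machinery was searched as TATAAA. The ETS letters were found in 3 of the 5 windows, against 35.4% of all 32851 windows. The TATA letters were found in 1 of the 5 against 13.6% of all windows, and the GATA and forkhead letters in 0 of the 5 against 11.2% and 3.65%. Whether these letters bear on the levels of the genes was not tested. The 3 windows that held a motif are shown for the 250 bases before the start site. They run 5′ to 3′ on the gene's minus strand, with the searched letters in capitals. They lie at chr8:3770652-3770901 (*Clec4g*), chr14:30890599-30890848 (*Stab1*), and chr10:86843807-86844056 (*Stab2*) on GRCm39, and the start sites lie 20, 0, and 83 bases from those of the GENCODE transcripts.
Clec4g: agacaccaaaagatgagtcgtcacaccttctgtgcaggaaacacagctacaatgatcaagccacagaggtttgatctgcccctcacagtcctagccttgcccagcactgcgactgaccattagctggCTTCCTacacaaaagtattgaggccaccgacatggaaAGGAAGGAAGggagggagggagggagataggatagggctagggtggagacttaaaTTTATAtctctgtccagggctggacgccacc
Stab1: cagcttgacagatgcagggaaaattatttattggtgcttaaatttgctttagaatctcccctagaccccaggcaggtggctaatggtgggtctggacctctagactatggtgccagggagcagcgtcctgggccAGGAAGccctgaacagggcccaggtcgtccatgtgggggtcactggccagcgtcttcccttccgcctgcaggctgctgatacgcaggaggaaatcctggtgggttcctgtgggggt
Stab2: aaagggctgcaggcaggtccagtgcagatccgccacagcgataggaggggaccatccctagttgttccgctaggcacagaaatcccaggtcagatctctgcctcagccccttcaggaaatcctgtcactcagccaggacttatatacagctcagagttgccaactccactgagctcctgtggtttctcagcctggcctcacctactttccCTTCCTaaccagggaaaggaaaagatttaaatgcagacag
*Clec4g* held 3 ETS matches, 2 of them as neighboring repeats on the gene's strand, and a TATA match on the opposite strand that began 31 bases before the start site. *Stab1* and *Stab2* held 1 ETS match each.

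Levels of the 10 genes were compared with each other per kilobase of transcript and scaled by the effective library size, which is the total count times the TMM factor of edgeR (CPM per kilobase). In control hepatocytes they were low, from 0.183 ± 0.122 (SD, n = 3) for *Lyve1* to 1.46 ± 0.54 for *Clec4g*. The 3 highest control levels were those of *Clec4g*, a C-type lectin that binds glycans, *Fcgr2b*, an inhibitory receptor for IgG that clears immune complexes (1.39 ± 0.43), and *Dnase1l3*, a secreted nuclease that degrades extracellular DNA (1.36 ± 0.34). Neighbors in this order did not differ beyond their spread in control, since the library ranges of each gene and the next overlapped. *Lyve1* was the lowest of the 10 in all 3 control libraries. In the libraries labelled p65 KO the levels ran from 1.17 ± 0.21 (n = 2) for *Lyve1* to 6.83 ± 1.83 for *Dnase1l3*, which was the highest of the 10 in both libraries. In those labelled DKO they ran from 0.590 (0.517 to 0.704, n = 3) to 3.24 ± 0.75 for the same 2 genes. The only adjacent genes without overlap were *Pecam1* and *Lyve1* in Nrf2 KO, *Kdr* and *Pecam1* in p65 KO, and *Stab1* and *Stab2* in DKO.

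**Figure D1:**
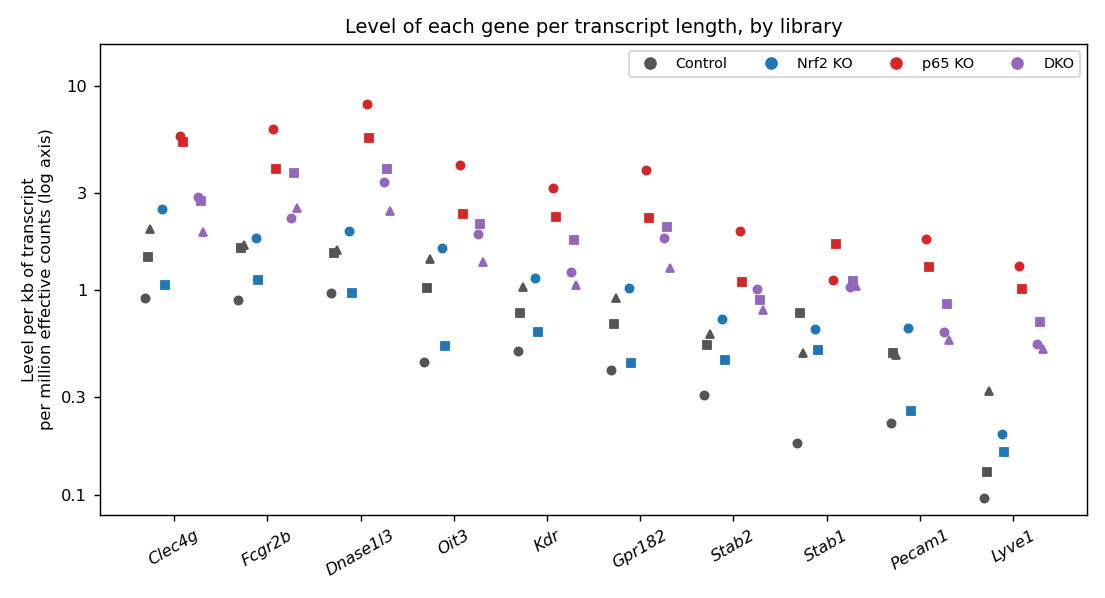
Level of each of the 10 genes as CPM per kilobase of transcript, on effective library sizes (log axis) in each library, with genes ordered by their control mean and genotypes by color. Circles, squares, and triangles are replicates 1, 2, and 3. The highest point of each gene is a p65 KO library, *Dnase1l3* reaches the highest level, and *Lyve1* is lowest in control.

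The main difference was between p65 KO and control. All 10 genes were called higher in the libraries labelled p65 KO (edgeR's quasi-likelihood test, with an adjusted p not above 0.05 and a difference of 1 or more on the log2 scale), whereas 5.05% of all tested genes were called higher. The fold changes ranged from 2.90 for *Stab1* to 6.31 for *Lyve1*, and their median on the log2 scale was 1.88, where that of all tested genes was 0.0009. For all 10 genes, both p65 KO libraries lay above all 3 control libraries, as did 26.2% of all tested genes. The values of each library are given below in the order of the replicate numbers.

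Among the receptors that take up macromolecules, *Stab2*, which clears hyaluronan from the blood, was at 121, 214, and 241 normalized counts in control, 287 and 180.3 in Nrf2 KO, 768 and 433 in p65 KO, and 401, 355, and 317 in DKO. Its p65 KO libraries were the highest of the 10, the DKO libraries came next, and the Nrf2 KO libraries overlapped with control. The log2 fold change in p65 KO was 1.64 ± 0.31 (SE, adjusted p = 0.0083, edgeR). *Stab1*, its homolog with affinity for modified lipoproteins, was at 55.2, 238, and 152 in control, 199.7 and 158 in Nrf2 KO, 346 and 517 in p65 KO, and 321, 341, and 325 in DKO. It was the gene with the smallest difference in p65 KO (1.53 ± 0.41, adjusted p = 0.031), and the only one whose highest p65 KO value was in replicate 2. *Lyve1*, a hyaluronan receptor that sinusoidal cells share with lymphatic vessels, was at 15.5, 20.7, and 51.4 in control, 31.6 and 25.9 in Nrf2 KO, 210.3 and 163 in p65 KO, and 87.3, 112, and 82.4 in DKO. Its p65 KO and DKO libraries lay above the other 5. The difference in p65 KO was the largest of the 10 genes (log2 fold change of 2.66 ± 0.42, adjusted p = 0.0039), on 14 to 55 estimated counts per control library.

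*Clec4g* was at 123, 193, and 265 normalized counts in control, 331 and 141 in Nrf2 KO, 752 and 707 in p65 KO, and 379, 365, and 255 in DKO. The p65 KO libraries differed little from each other (729 ± 32, SD, n = 2), and the lowest DKO library was below the highest control library. In p65 KO its log2 fold change was 1.91 ± 0.35 (adjusted p = 0.0070). *Fcgr2b* was at 117, 212, and 218 in control, 237 and 148 in Nrf2 KO, 805 and 514 in p65 KO, and 296, 493, and 332 in DKO. The 5 p65 KO and DKO libraries all lay above the other 5. In p65 KO its log2 fold change was 1.85 ± 0.32 (adjusted p = 0.0056).

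Of the genes for signaling and adhesion, *Kdr*, the main receptor of endothelial cells for vascular endothelial growth factor, was at 116, 177, and 238 in control, 262 and 142 in Nrf2 KO, 721 and 522 in p65 KO, and 282, 402, and 243 in DKO. The lowest DKO library was above all control libraries but below an Nrf2 KO library. The log2 fold change in p65 KO was 1.81 ± 0.33 (adjusted p = 0.0069). *Gpr182*, an atypical receptor for chemokines, was at 62.9, 105, and 141 in control, 157 and 67.9 in Nrf2 KO, 595 and 348 in p65 KO, and 277, 314, and 198 in DKO. Its p65 KO and DKO libraries lay above those of control and Nrf2 KO. It rose in p65 KO (log2 fold change of 2.19 ± 0.39, adjusted p = 0.0065). *Pecam1*, an adhesion molecule of endothelial junctions that platelets and leukocytes also carry, was at 32.0, 69.8, and 68.2 in control, 92.9 and 36.4 in Nrf2 KO, 253 and 184 in p65 KO, and 88.4, 121, and 81.2 in DKO. The DKO libraries lay above control but overlapped with Nrf2 KO. The log2 fold change in p65 KO was 1.94 ± 0.41 (adjusted p = 0.014).

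Of the genes for secreted proteins, *Dnase1l3* was at 177, 278, and 289.5 in control, 358 and 178 in Nrf2 KO, 1484 and 1012 in p65 KO, and 617, 715, and 445 in DKO. The 4 groups fell in the order p65 KO, DKO, and then control and Nrf2 KO, which overlapped. The difference in p65 KO (2.33 ± 0.31) had the lowest adjusted p of the 10 genes (0.0020). *Oit3*, which encodes a protein with a zona pellucida domain, was at 48.6, 112, and 155 in control, 175 and 58.2 in Nrf2 KO, 445 and 257 in p65 KO, and 204, 230.0, and 149 in DKO. Its lowest DKO library was below the highest control library. It had the widest error of the 10 genes (1.73 ± 0.48, adjusted p = 0.037).

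**Figure D2:**
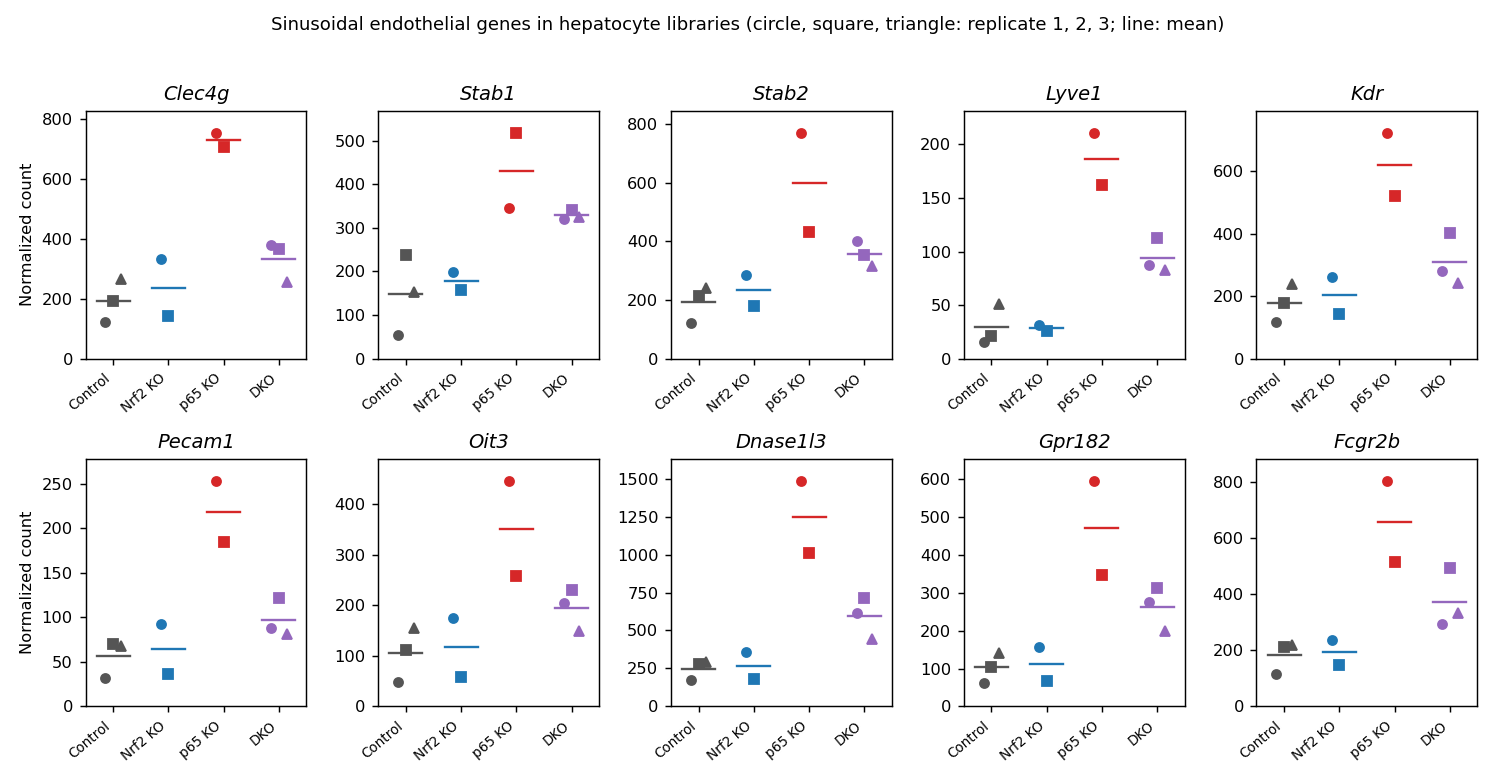
Normalized counts of the 10 genes in each library, with 1 panel per gene and an axis that starts at 0 in each panel. Circles, squares, and triangles are replicates 1, 2, and 3, and lines are group means. Both p65 KO points lie above all control points in every panel, and the DKO mean is above the control mean and below the p65 KO mean in all 10.

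The replicates of a genotype differed in the same direction across most of the genes. Control replicate 1 was the lowest control library for 10 of the 10 genes, and Nrf2 KO replicate 1 was the higher Nrf2 KO library for 10 of the 10. Replicate 1 was the higher p65 KO library for 9 of the 10. In DKO, replicate 2 was the highest for 8 of the 10 genes and replicate 3 the lowest for 8. Such an order was not particular to the 10 genes. In the marker sums described below, control replicate 1 was also the lowest control library for pan-endothelial, Kupffer, and monocyte and dendritic cell genes. It was not the lowest for stellate cell genes. Nrf2 KO replicate 1 was above replicate 2 in all 4 of these sums. The share of all tested genes with these orders was not counted. The sum of the 10 genes made up 21.7, 44.2, and 45.8 CPM of the total counts in control, 57.5 and 28.2 in Nrf2 KO, 186 and 136 in p65 KO, and 70.0, 86.9, and 57.7 in DKO. Without p65 KO replicate 1, the count of called genes fell from 10 to 2 (*Dnase1l3* and *Lyve1*), and with 1 library left in that group the higher calls over all tested genes fell from 689 to 187 (1.39%). The median log2 fold change of the 10 genes was then 1.72.

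DKO hepatocytes were intermediate. For all 10 genes the DKO mean was above the control mean and below the p65 KO mean. Compared with control, the log2 fold change was positive for 10 of the 10 genes (52.7% of all tested genes), and its median was 0.96, where that of all tested genes was 0.02. *Dnase1l3* (1.25 ± 0.29, adjusted p = 0.031, edgeR) and *Lyve1* (1.67 ± 0.39, adjusted p = 0.034) were called higher, which is 2 of 10 genes against 1.36% of all tested genes. *Gpr182* had a larger log2 fold change than *Dnase1l3* but missed the threshold (1.34 ± 0.36, adjusted p = 0.057). For the remaining 7 genes the values ran from 0.77 to 1.14 on the log2 scale, with adjusted p-values from 0.070 to 0.28. Unadjusted p-values were at most 0.05 for 8 of the 10 genes, against 11.9% of all tested genes in this direction, and 8 of the 10 had no overlap between the DKO and control libraries, against 13.2%. *Clec4g* and *Oit3* overlapped. The calls for *Dnase1l3* and *Lyve1* both ended when control replicate 1, control replicate 2, DKO replicate 1, or DKO replicate 2 was left out. That of *Dnase1l3* also ended without control replicate 3, and that of *Lyve1* without either p65 KO library. DESeq2 called 5 genes, and 2.68% of all tested genes higher.

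Compared with p65 KO, all 3 DKO libraries lay below both p65 KO libraries for 10 of the 10 genes, against 20.1% of all tested genes. The log2 fold changes ranged from a decrease of 0.39 for *Stab1* (95% interval -1.28 to 0.50) to one of 1.17 for *Pecam1* (-2.07 to -0.28), with a median of -0.92. None of the 10 was called lower by edgeR, against 0.968% of all tested genes, and the lowest adjusted p was 0.074 for *Dnase1l3* (-1.07 ± 0.30). Unadjusted p-values were at most 0.05 for 8 of the 10 genes in this direction, against 11.3% of all tested genes. DESeq2 called 3 genes lower (1.88% of all tested genes), and edgeR with library totals as scaling called the same 3 (*Clec4g*, *Dnase1l3*, and *Kdr*, with 3.06% of all tested genes), but that scaling also moved the median of all tested genes to -0.27.

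In Nrf2 KO, the values of the 10 genes scattered around those of control. No gene was called by edgeR (0.11% of all tested genes were called higher and 0.44% lower), 0 had an unadjusted p of at most 0.05 (4.3% of all tested genes higher and 5.07% lower), and DESeq2 and limma also called 0. The log2 fold change was above 0 for 9 of the 10 genes (50.3% of all tested genes), with a median of 0.15. No gene was separated from control in all libraries, whereas 14.8% of all tested genes lay above and 13.6% below control in both. The 2 Nrf2 KO libraries differed by more than the group means did, for example 157 and 67.9 for *Gpr182*. The 95% intervals were wide, from -0.61 to 0.81 for *Dnase1l3* and from -1.04 to 0.96 for *Lyve1*. Those of *Clec4g* (-0.52 to 1.07) and *Kdr* (-0.57 to 0.93) included the log2 fold changes of these genes in DKO versus control. So did those of *Stab1* (-0.67 to 1.19), *Stab2* (-0.43 to 0.97), *Pecam1* (-0.78 to 1.12), and *Oit3* (-0.98 to 1.24). Those of *Lyve1*, *Dnase1l3*, *Gpr182*, and *Fcgr2b* did not. Compared with Nrf2 KO, DKO had a positive log2 fold change for 10 of the 10 genes (51% of all tested genes), with a median of 0.81, and 6 genes were without overlap against 15.8% of all tested genes. None was called (0.293% of all tested genes were called higher), 4 genes had an unadjusted p of at most 0.05 against 8.05%, and DESeq2 called 2 (*Dnase1l3* and *Lyve1*, with 1.69% of all tested genes higher).

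The interaction compared the difference between DKO and p65 KO with that between Nrf2 KO and control. It was negative for all 10 genes, with a median of -1.0 and a range from -0.65 ± 0.58 for *Stab1* to -1.41 ± 0.50 for *Clec4g*. None was called by edgeR (0.191% of all tested genes were called lower) or DESeq2. Unadjusted p-values were at most 0.05 for 5 of the 10 genes, against 6.55% of all tested genes in this direction, and the adjusted p-values ranged from 0.26 to 0.66. The comparisons share libraries and their values are not independent.

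**Figure D3:**
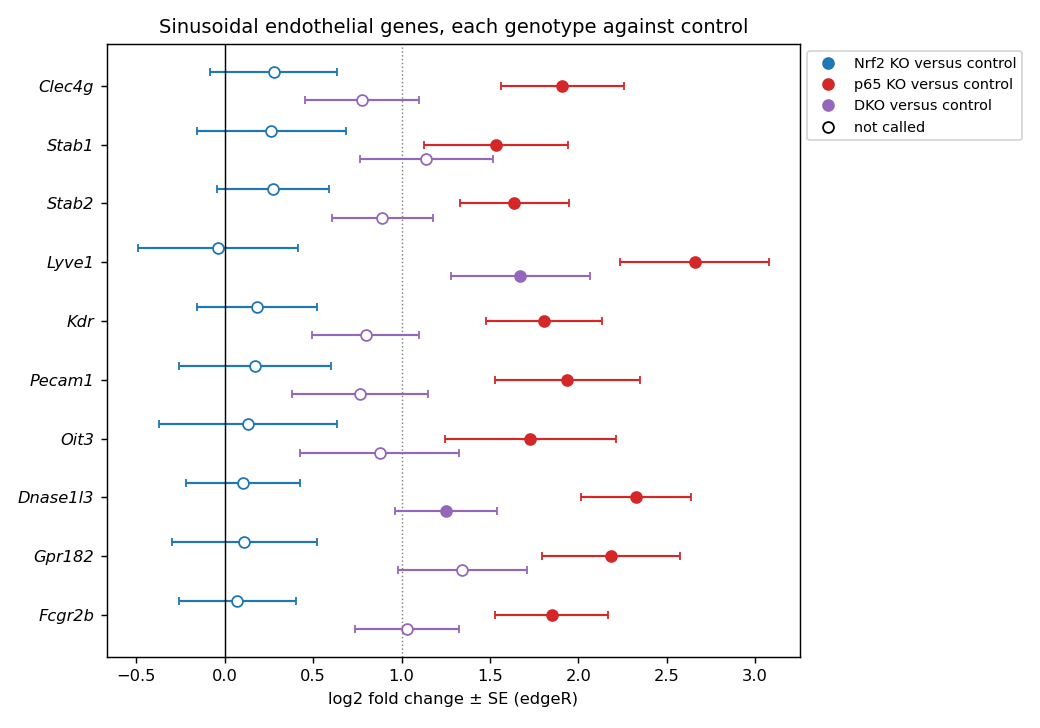
Log2 fold changes of the 10 genes against control with their standard errors (edgeR), for Nrf2 KO (2 libraries), p65 KO (2 libraries), and DKO (3 libraries), each against 3 control libraries. Filled points passed both thresholds, and the dotted line marks a log2 fold change of 1. All 10 p65 KO points and the DKO points of *Lyve1* and *Dnase1l3* are filled.

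In p65 KO, 5.05% of all tested genes were called higher and 1.54% lower. Of 18 listed pan-endothelial genes, 10 were called higher in p65 KO and none lower, with a median log2 fold change of 1.70. They included the junctional cadherin *Cdh5* (2.01 ± 0.37, adjusted p = 0.0072) and *Eng*, a co-receptor for transforming growth factor β (2.29 ± 0.36, adjusted p = 0.0039), and the log2 fold changes ranged from 0.89 ± 0.54 for *Emcn* (adjusted p = 0.29) to 2.70 ± 0.77 for the transcription factor *Sox7* (adjusted p = 0.040). In DKO, *Eng* was the only one of the 18 to be called (1.58 ± 0.34, adjusted p = 0.025, edgeR), against 1.36% of all tested genes called higher. In Nrf2 KO 0 of the 18 were called, against 0.11% of all tested genes higher and 0.44% lower. An unadjusted p of at most 0.05 was reached by 0 of the 18, against 4.3% higher and 5.07% lower.

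Of 14 further sinusoidal and angiocrine genes, 7 were called higher in p65 KO, against 5.05% of all tested genes. Among them were *Wnt2*, a Wnt ligand of endothelial cells that acts on hepatocytes around the central vein (2.92 ± 0.56, adjusted p = 0.0086), *Bmp2*, which induces hepcidin in hepatocytes (1.60 ± 0.41, adjusted p = 0.027), the Notch ligand *Dll4* (2.43 ± 0.57, adjusted p = 0.020), and the mannose receptor *Mrc1* (2.09 ± 0.37, adjusted p = 0.0062). *Flt4*, *Ehd3*, and *Plxnc1* were the others. *Wnt2* and *Dll4* are counted at low levels, with 4.34 ± 0.37 and 9.08 ± 5.37 normalized counts in control. In DKO, *Wnt2* (2.23 ± 0.53, adjusted p = 0.036, edgeR), *Dll4* (2.23 ± 0.53, adjusted p = 0.036), and *Plxnc1* (1.94 ± 0.29, adjusted p = 0.0047) were called higher, against 1.36% of all tested genes. In Nrf2 KO 0 of the 14 were called (0.11% of all tested genes higher and 0.44% lower). An unadjusted p of at most 0.05 was reached by 2 genes that were higher and 1 that was lower, against 4.3% and 5.07%. Both Nrf2 KO libraries lay above all control libraries for 2 of the 14 and below for 1, against 14.8% and 13.6%.

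*Gata4*, a transcription factor that specifies sinusoidal endothelium and that hepatocytes also express, went in the other direction from the 10 genes. It averaged 587 ± 165 normalized counts in the control libraries and 392 ± 65 in those of Nrf2 KO (SD, n = 3 and 2). The p65 KO and DKO means were 354 ± 12 and 289 ± 75 (n = 2 and 3). It was called lower in DKO (-1.02 ± 0.23, adjusted p = 0.030) and missed the threshold in p65 KO (-0.73 ± 0.26, adjusted p = 0.082). Of 9 tested genes of large vessels, 8 were low in control (at most 13.4 normalized counts on average). In p65 KO 2 of the 9 were called higher, against 5.05% of all tested genes. These were the gap junction gene *Gja4* (3.25 ± 0.71, adjusted p = 0.015, edgeR) and thrombomodulin, *Thbd* (2.69 ± 0.71, adjusted p = 0.030). Not all of the 9 pointed this way in p65 KO. *Selp*, an adhesion molecule for leukocytes, was at 1.45 ± 0.62 normalized counts against 7.46 ± 3.96 in control (adjusted p = 0.15, edgeR), and *Cd9*, a tetraspanin of many cell types, at 412 ± 32 against 594 ± 52 (adjusted p = 0.079), both below control in all libraries. The summed level of the list was 0.938 times the control mean in p65 KO, most of it from *Cd9*. In DKO 0 of the 9 were called (1.36% of all tested genes higher and 1.02% lower), and 1 had an unadjusted p of at most 0.05 in each direction. These were *Gja4*, with a positive log2 fold change (1.64 ± 0.68, adjusted p = 0.18), and the gap junction gene *Gja5*, which was at 0.701 ± 1.21 normalized counts against 8.30 ± 1.76 in control (adjusted p = 0.076). In Nrf2 KO 0 of the 9 were called by edgeR, against 0.11% of all tested genes higher and 0.44% lower. An unadjusted p of at most 0.05 was reached by 0 of the 9, against 4.3% higher and 5.07% lower.

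Genes of other non-parenchymal cells moved in the same libraries. Over all tested genes, 5.05% were called higher in p65 KO and 1.36% in DKO. In Nrf2 KO, 0.11% were called higher and 0.44% lower. All 12 Kupffer cell genes were called higher in p65 KO, from 1.93 ± 0.52 for *Folr2* (adjusted p = 0.032) to 3.62 ± 0.57 for the scavenger receptor *Marco* (adjusted p = 0.0039), and 6 of the 12 in DKO. Of 10 stellate cell genes, 8 were called higher in p65 KO, up to 5.51 ± 1.21 for the growth factor receptor *Pdgfrb* (adjusted p = 0.016), and 1 in DKO, the proteoglycan *Dcn* (1.68 ± 0.41, adjusted p = 0.039). Monocyte and dendritic cell genes were called higher for 3 of 7 in p65 KO and 1 of 7 in DKO, neutrophil genes for 1 of 3 and 0 of 3, and T and NK cell genes for 0 of 6 and 1 of 6. B cell, cholangiocyte, erythroid and platelet, and hepatocyte genes had 0 calls in p65 KO and DKO (of 4, 3, 6, and 9 tested), and no gene of any of these lists was called in Nrf2 KO. The summed level of the Kupffer cell genes was 7.78 times the control mean in p65 KO (range 6.56 to 9.00), that of the stellate cell genes 7.36 times (7.14 to 7.58), that of the 18 pan-endothelial genes 3.41 times (2.84 to 3.98), and that of the 10 sinusoidal endothelial genes 3.84 times (3.24 to 4.44). In DKO the sums were 3.23, 2.26, 1.89, and 2.05 times the control mean. The sum of the further sinusoidal and angiocrine genes was 1.51 times the control mean in p65 KO (1.45 to 1.58) and 1.16 times in DKO (1.08 to 1.25). A sum weights genes by their counts, and this one includes *Gata4*, which was lower. The median log2 fold change of these 14 genes was 1.82 in p65 KO, where that of the 10 sinusoidal endothelial genes was 1.88, and 0.80 in DKO. In p65 KO 12 of the 14 lay above control in all libraries and 1 below, and 26.2% of all tested genes lay above. The part of these other cells, and of the preparation, in the differences of the 10 genes was not tested.

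**Figure D4:**
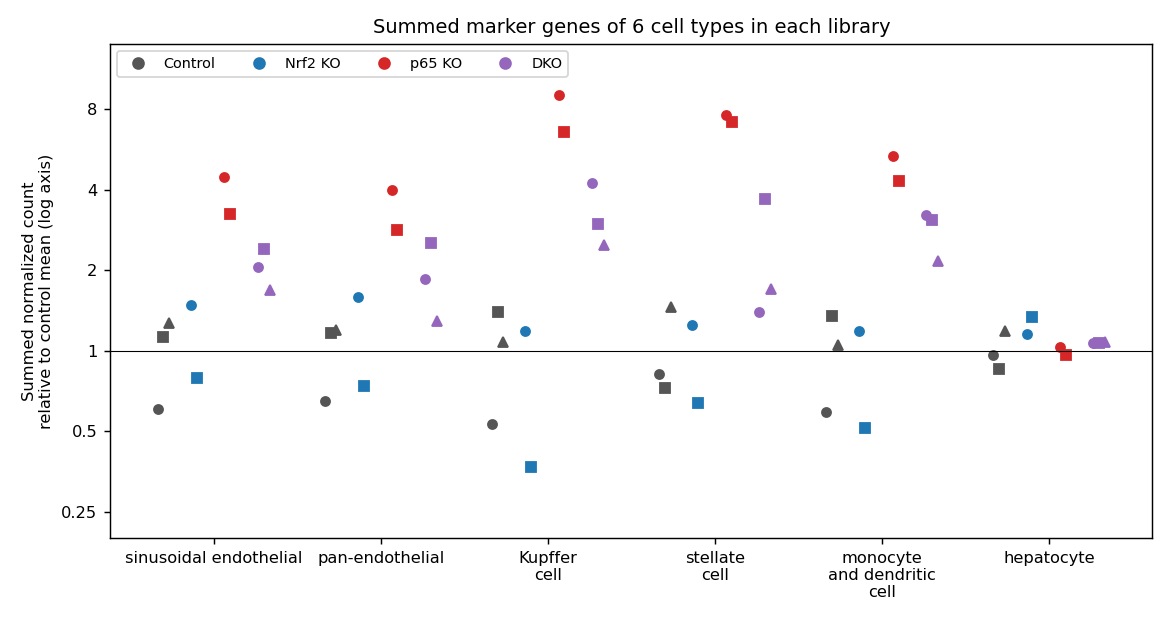
Summed normalized counts of the marker genes of 6 cell types in each library, relative to the control mean (log axis). Colors are genotypes, and circles, squares, and triangles are replicates 1, 2, and 3. Both p65 KO libraries lie above all other libraries for the endothelial, Kupffer, stellate, and monocyte and dendritic cell lists, and the hepatocyte list stays between 0.852 and 1.34 in all libraries.

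The sums of the different cell types did not keep 1 ratio. The sinusoidal endothelial sum was 2.36, 1.69, and 2.46 times the Kupffer cell sum in control, 2.62 and 4.48 times in Nrf2 KO, 1.03 times in both p65 KO libraries, and 1.02, 1.69, and 1.41 times in DKO. The p65 KO libraries thus lay below all control and Nrf2 KO libraries in this ratio. Relative to the stellate cell sum, it was 2.88, 6.06, and 3.41 in control, 4.66 and 4.85 in Nrf2 KO, 2.29 and 1.77 in p65 KO, and 5.75, 2.55, and 3.87 in DKO. Both p65 KO libraries lay below all other libraries in this ratio. Relative to the pan-endothelial sum, it was 1.40, 1.46, and 1.59 in control, 1.40 and 1.61 in Nrf2 KO, 1.67 and 1.71 in p65 KO, and 1.65, 1.43, and 1.96 in DKO. Here both p65 KO libraries lay above all control and Nrf2 KO libraries, the closest of them by 1.67 against 1.61.

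The 10 genes also differed from each other once the endothelial content of a library was taken as the summed count of the 18 pan-endothelial genes. *Dnase1l3* was at 28.5%, 25%, and 25.3% of that sum in control, 23.5% and 25.2% in Nrf2 KO, 38.9% and 37.2% in p65 KO, and 34.6%, 29.6%, and 36.0% in DKO. All p65 KO and DKO libraries lay above the other 5. *Lyve1* was at 2.49%, 1.86%, and 4.497% in control, 2.07% and 3.66% in Nrf2 KO, 5.51% and 5.98% in p65 KO, and 4.89%, 4.65%, and 6.66% in DKO, without overlap, and *Gpr182* at 10.1%, 9.45%, and 12.3%, then 10.3% and 9.61%, then 15.6% and 12.8%, and 15.5%, 13.0%, and 16.004%. These 3 genes and *Pecam1* (5.16% to 6.27% in control against 6.63% and 6.78%) lay above control in both p65 KO libraries, which is 4 of 10 genes against 4.08% of all tested genes. In DKO the 3 genes without *Pecam1* did so, which is 3 of 10 against 1.58%, and in Nrf2 KO 0 of 10 against 2.24%. No gene of the 10 lay below control in all libraries of a genotype. *Lyve1* and *Pecam1* can also be expressed by macrophages or other leukocytes, and the summed Kupffer cell genes were 7.78 times the control mean in p65 KO. The part of such cells in these percentages was not tested. Of the 18 pan-endothelial genes themselves, *Cdh5*, *Eng*, and *Sox7* lay above and *Tek*, *Tie1*, and *Emcn* below control in both p65 KO libraries, and of the 14 further sinusoidal and angiocrine genes 5 lay above (*Flt4*, *Mrc1*, *Plxnc1*, *Wnt2*, and *Rspo3*) and 4 below (*Gata4*, *Maf*, *Nrp1*, and *F8*). In both Nrf2 KO libraries, 3 of these 14 genes lay above control (*Plxnc1*, *Wnt2*, and *Rspo3*) and 0 below. Of the 18, *Eng* lay above and *Tie1* below control there. The pan-endothelial sum was 3.41 times the control mean in p65 KO and 1.89 times in DKO. The median log2 fold change of all tested genes was 0.0009 and 0.02. The share over all tested genes is therefore a low background for this ratio. In p65 KO, 11 of 12 Kupffer cell genes, 6 of 7 monocyte and dendritic cell genes, and 6 of 10 stellate cell genes also lay above control. In DKO these counts were 6, 2, and 1. No gene of these lists lay below control in p65 KO or DKO.

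**Figure D5:**
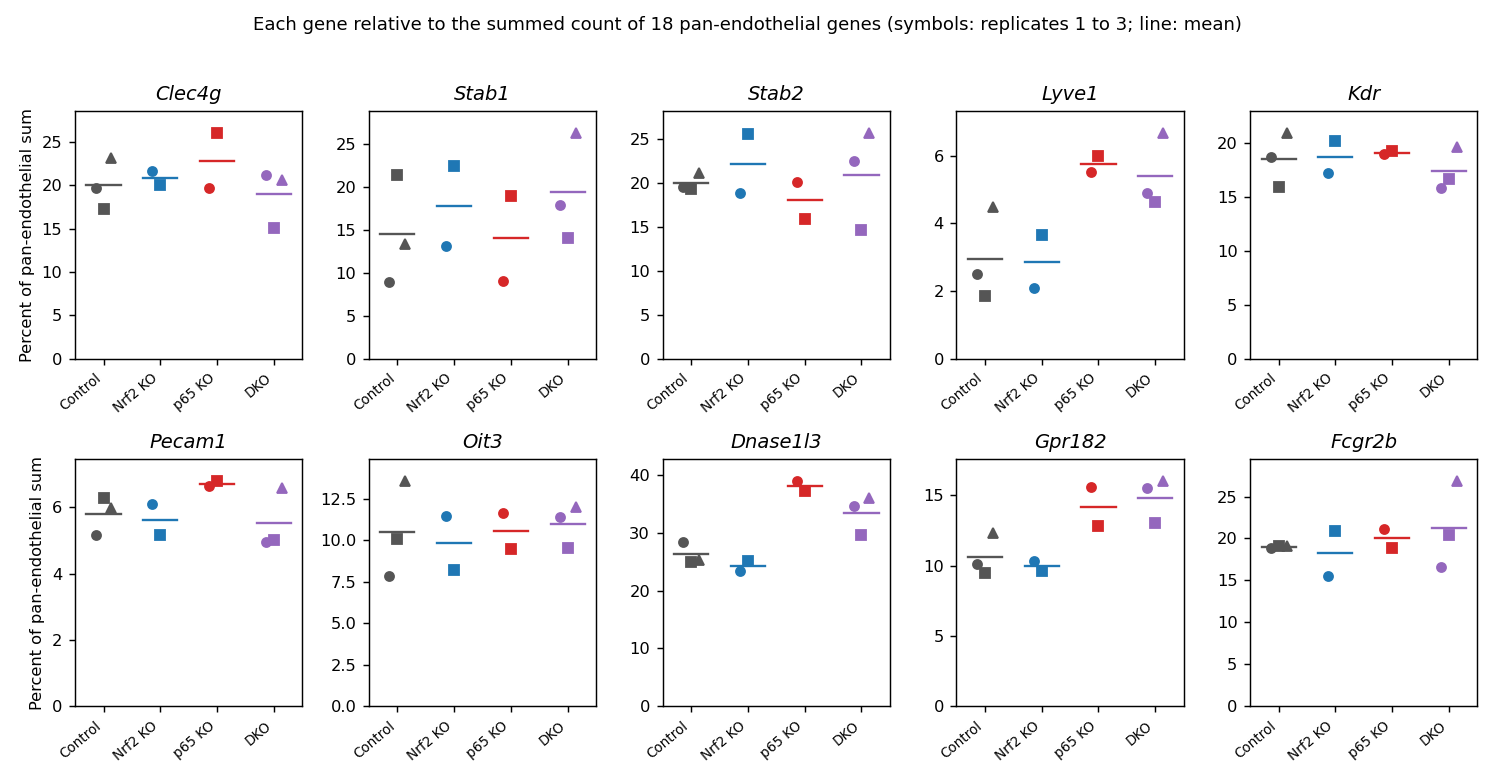
Normalized count of each of the 10 genes as a percentage of the summed count of 18 pan-endothelial genes, by genotype, with an axis that starts at 0 in each panel. Circles, squares, and triangles are replicates 1, 2, and 3, and lines are group means. The p65 KO and DKO points lie above those of control and Nrf2 KO for *Lyve1*, *Dnase1l3*, and *Gpr182*.

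The genes with the pattern most like that of the 10 were sought among 10175 other tested genes whose mean normalized count was 50 or more, by the SD over the 10 libraries of the difference between the log2 value of a gene and the mean log2 value of the 10. That mean itself had an SD of 0.907 over the libraries. The closest gene was *Cdh5* (SD of the difference 0.0905), followed by *Flt4*, a receptor for lymphatic growth factors (0.127), *Calcrl*, a receptor for adrenomedullin (0.152), *Tinagl1* (0.175), *Mrc1* (0.185), *Cyp4b1* (0.188), *Gimap6* (0.198), *Clec14a* (0.198), *Ehd3* (0.217), and *Npr1*, a receptor for natriuretic peptides (0.226). Of these 10 genes, 1 was in the pan-endothelial list, 3 were among the further sinusoidal genes, and none was in the Kupffer or stellate cell list. These lists hold 18, 14, 12, and 10 genes. How many of them are among the 10175 candidates was not counted, so these numbers have no background share to be set against. Among the 10 sinusoidal endothelial genes, *Fcgr2b* (0.172) and *Kdr* (0.174) stayed closest to the mean they are part of, whereas *Stab1* (0.473) and *Lyve1* (0.484) departed most from it. These values describe the 10 libraries, which share their genotype differences.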

How the data were processed

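Single-end RNA-seq libraries of hepatocytes from 10 mice were analyzed. Per the submitters' processing notes and the study's methods, stranded reads were quantified by the authors with Salmon 1.10.3 (GRCm39, GENCODE M33). The deposited values are estimated counts of genes in whole numbers. The table is named as normalized, but the totals differed between libraries (33707165 to 49897382), as did median-of-ratios size factors (0.879 to 1.26), so the values were used as estimated counts without normalization. All columns were assigned to mice by name.

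Genes with fewer than 10 counts summed over the libraries were removed, which left 13641 genes. The test was the quasi-likelihood test of edgeR 4.0.16 under R 4.3.3 (TMM scaling, all 4 genotypes in 1 fit, because 2 of them have 2 libraries). Benjamini-Hochberg adjustment covered all tested genes of a comparison. A gene was called when its adjusted p did not exceed 0.05 and its absolute log2 fold change was 1 or more. The same threshold was used for unadjusted p-values. Standard errors are the log2 fold change divided by the square root of F, and 95% intervals use the t distribution of the fit. Normalized counts are counts divided by the relative effective library size. The p-values set a difference between genotypes against the spread between mice of the same genotype, estimated over all 4 genotypes together. Replicates of 1 genotype differed by more than sampling noise (chi-square per degree of freedom between 46.9 and 215), so each library was counted separately.

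Alternatives were DESeq2 1.42.0, limma 3.58.1 with a trend on log2(value + 1), scaling by library totals or upper quartiles, keeping all genes, requiring a mean of 10 counts, only the genotypes compared, the replicate number as a block, and leaving out each library in turn. The members and the lists of marker genes were chosen with earlier results of these data known. The genes named are the 10 members, the targeted genes, *Cd9* (after its values were seen), and, from the lists, genes that were called or had the highest or lowest log2 fold change in a comparison with control, the genes that lay above or below control relative to the pan-endothelial sum (named after their values were seen), and the 10 genes with the most similar pattern. Of the 10 hepatocyte genes listed, 1 was not matched. Gene positions and transcript lengths came from GENCODE M39, which held 21926 of 21939 identifiers.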

Additional observations from a re-analysis of the deposited data

How the results depend on the processing

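In p65 KO versus control, 8 to 10 of the 10 genes were called in every alternative except without p65 KO replicate 1, where 2 were (range over left-out libraries 2 to 10), and the median stayed between 1.64 and 2.11. With only the genotypes compared *Stab1* lost its call, leaving 9 (6.01% of all tested genes were called higher). Over the alternatives with no single library left out, this share ran from 3.36% to 6.28%. In DKO versus control, 5 genes were called with DESeq2, 4 without a filter, 1 each with library totals and with only the genotypes compared, and 0 to 3 with libraries left out. In DKO versus Nrf2 KO, 2 were called with DESeq2 and 0 to 1 with libraries left out. In DKO versus p65 KO, 3 were called with DESeq2, 3 with library totals, 1 without a filter, and 1 with only the genotypes compared. The causes were not tested. Over all tested genes, 2.68% were called higher in DKO versus control with DESeq2 and 1.51% without a filter. With library totals this share was 1.12%, and with only the genotypes compared 0.78%. In DKO versus Nrf2 KO, 1.69% were called higher with DESeq2. In DKO versus p65 KO, 1.88% were called lower with DESeq2 and 3.06% with library totals. Without a filter this share was 1.12%, and with only the genotypes compared 0.45%. In Nrf2 KO versus control and in the interaction, 0 of the 10 genes were called in each alternative run.

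Replicate numbers did not pair the libraries (correlations of the deviations of same-numbered libraries between -0.231 and 0.116). With the replicate block, 9 genes were called in p65 KO versus control (without *Oit3*) and 1 in DKO versus control (without *Dnase1l3*), and no other call changed. Of all tested genes, 3.36% and 0.799% were then called higher.

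In Nrf2 KO versus control, the sign turned with single libraries left out. The median ran from -0.39 to 0.57, and was -0.11 without control replicate 1 and -0.39 without Nrf2 KO replicate 1. *Clec4g* ran from -0.46 to 0.77, *Stab1* from -0.12 to 0.77, *Stab2* from -0.10 to 0.57, *Lyve1* from -0.33 to 0.66, *Kdr* from -0.32 to 0.56, *Pecam1* from -0.64 to 0.71, *Oit3* from -0.86 to 0.73, *Dnase1l3* from -0.48 to 0.53, *Gpr182* from -0.61 to 0.60, and *Fcgr2b* from -0.31 to 0.38. *Lyve1* was also positive with limma (0.16) and with the replicate block (0.26). With libraries left out, the interaction of *Oit3* ran from -1.58 to 0.00874, the median interaction from -1.51 to -0.56, and the median of DKO versus Nrf2 KO from 0.49 to 1.37, the latter without Nrf2 KO replicate 1.

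Scaling by library totals moved the median of all tested genes to 0.18 in p65 KO versus control, where that of the 10 genes was 2.05, and to -0.27 in DKO versus p65 KO. It changed the split of higher and lower calls over all tested genes from 186 and 139 to 153 and 177 in DKO versus control, from 111 and 132 to 86 and 418 in DKO versus p65 KO, and from 36 and 26 to 27 and 91 in the interaction. With 2 or 3 mice per genotype, intervals of single genes were wide.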
